A study of Homo sapiens with 6 samples.

Results

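Genes of interferon signalling and of the antiviral state were followed in MDA-MB-231, a long-cultured line of human breast carcinoma cells, as RNA counts from sequencing. The set held 45 genes chosen by name for their known roles: the ligand IFNB1, receptors and kinases, transcription factors, RNA sensors and effectors. The rule used no measured value, but the genes were chosen with earlier results of these data known. Each of the 45 symbols was matched by Ensembl identifier to a row of the count table, which held 20042 genes. In 3 cultures, labelled wild type, the cells were transfected with a control siRNA (siCTRL). In the other 3, labelled as ERBBride knock down, they were transfected with siRNA-1, a small interfering RNA directed against ERBBride, which the series title describes as a long non-coding RNA. Such siRNAs are short double-stranded RNAs that direct cleavage of transcripts they pair with. All 6 cultures share the parental line and the transfection, and only 1 targeting siRNA is compared here. No source used here gives its dose, its sequence or the time after transfection. The labels call the cultures biological replicates without saying how they were separated, so p-values measure the spread between these samples, which may be technical.

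Interferons are secreted proteins that cells release when they detect viral nucleic acid. Type I interferons such as interferon beta bind a receptor made of IFNAR1 and IFNAR2, whose kinases TYK2 and JAK1 phosphorylate STAT proteins. STAT2 and IRF9 then take part in a complex that binds the interferon-stimulated response element (ISRE) of target promoters. The products of those targets block viral entry, translation and replication, and some of them feed back on the pathway. Many of these genes also have a basal level in cells given no interferon.

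Libraries held 12813706 to 15014434 counts, and levels below are counts-per-million (CPM) with TMM scaling, a trimmed-mean correction for library composition, given per library in the order of replicates 1 to 3. A floor of 3 counts was at most 0.233 CPM, and such limits cover counting error only. Because 0 rows of the table carried the name ERBBride, the knockdown itself could not be checked here. The line's markers VIM, CD44, EGFR, AXL, CAV1 and LGALS1 were all detected, and their summed level was 6796 to 7135 CPM in siCTRL and 4144 to 4292 CPM in siRNA-1 libraries. The luminal receptor gene PGR was at 0, ESR1 and FOXA1 had 6 and 3 counts over all libraries, and EPCAM fell 3.04-fold. Of 4 endothelial markers CDH5 was at 0 and PECAM1 fell, and their summed level was 6.91 to 8.70 CPM in siCTRL and 3.82 to 5.10 CPM in siRNA-1 libraries. Of 10 haematopoietic markers, those at 0 included CD3E, MS4A1, CLEC4C and IL3RA. The summed level of those 10 was 19.0 to 25.3 CPM in siCTRL and 9.08 to 9.60 CPM in siRNA-1 libraries, most of it CD14 and CSF1R, which both fell. The part of these markers in the results was not tested. A change in a bulk level does not separate fewer expressing cells from less RNA per cell. One control, siCTRL 2, lay above the mean of the other controls in 27 of the 41 tested members (median difference 0.08 on the log2 scale). Over all genes tested it did so in 6232 of 12440 (median difference 0.0004). Calls and directions that change without siCTRL 2 are given beside the gene.

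Of the 45 genes, 41 had enough counts to test, and 29 of them changed at an adjusted p under 0.05 (edgeR quasi-likelihood test): 18 were higher and 11 lower in siRNA-1 cells. Across all 12440 genes tested the share called was 62.5%, with 31.5% higher and 31.0% lower, against 43.9% and 26.8% of the tested members. The share of members called, 70.7%, thus lay near that of genes in general. Changes of at least 2-fold were found in 6 members upwards and 4 downwards. In all genes 10.1% changed that much, 1.97% upwards and 8.14% downwards. The median log2 fold change of tested members was 0.17, against 0.01 for all genes tested, and the median size without regard to sign was 0.67 against 0.35. The libraries of the groups did not overlap in 31 of the 41, where 67.6% of all genes tested did not. Without siCTRL 2 the count was 19 higher and 13 lower of 42 members tested, the additions being IRF7 upwards and IFI27 and IFI35 downwards. Calls over all genes also rose without it, from 7772 of 12440 to 8635 of 12562 genes tested. The remaining 4 members, IFNB1, IRF9, RIGI and CMPK2, did not pass the filter on low counts and are given by their counts.

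**Figure D1:**
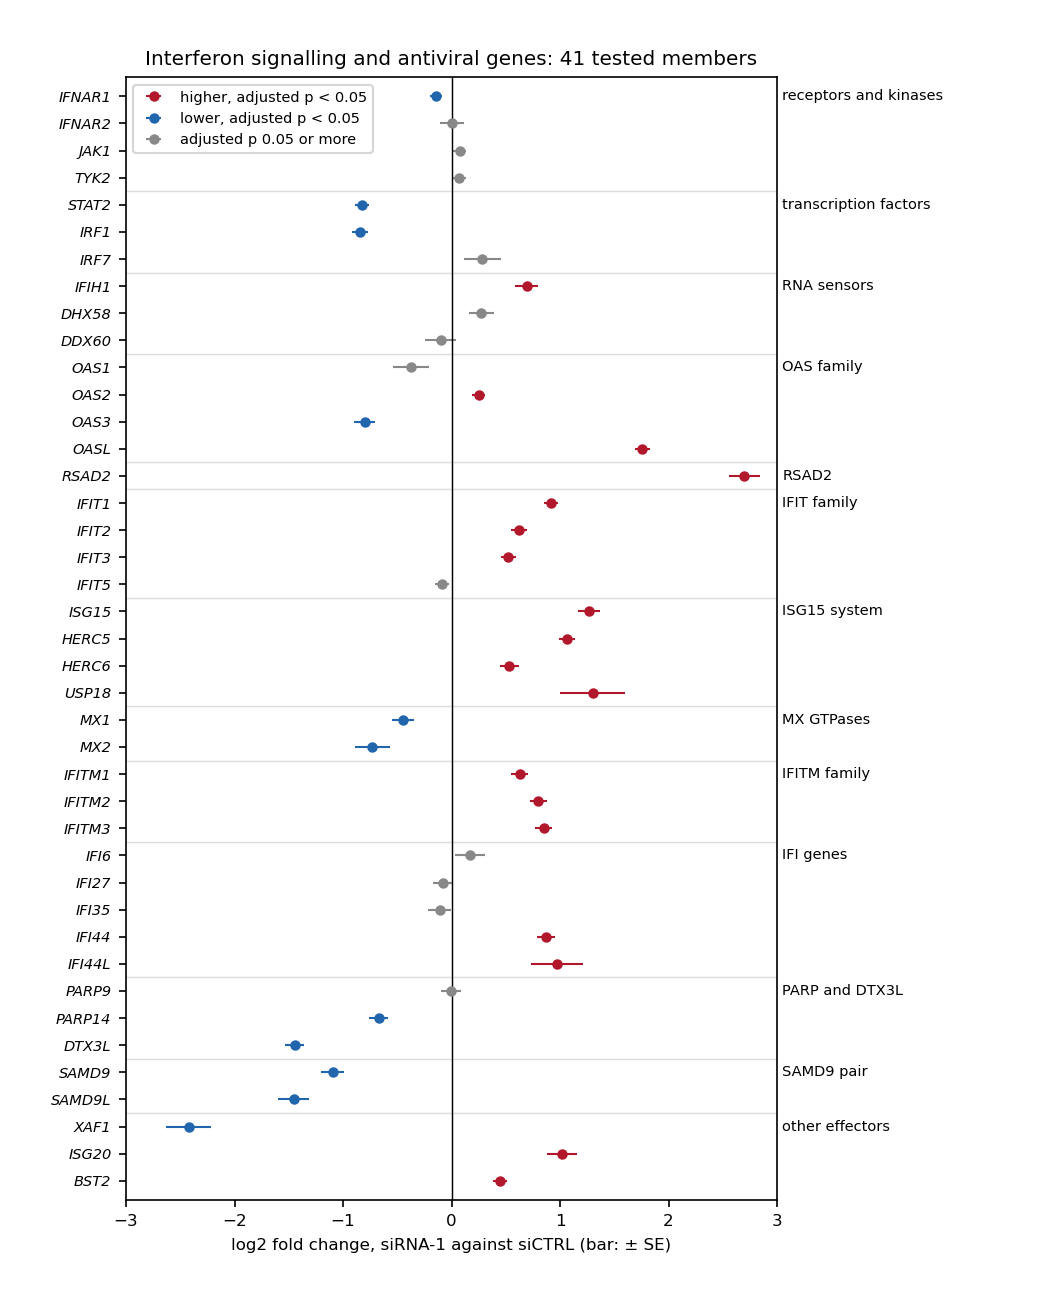
Log2 fold change of siRNA-1 against siCTRL (x axis, bar ± SE) for the 41 tested members, in rows by role and coloured by call. The receptor and kinase genes sit close to 0, while effectors spread from -2.42 (XAF1) to 2.70 (RSAD2).

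The ligand was not detected in any library. IFNB1, the interferon beta gene, had 0 counts in all 6, which allows at most 0.233 CPM in any of them. Among 20 further interferon genes of types I, II and III, 19 had 0 counts throughout. The exception was IFNL1, a type III interferon gene, with 0 counts in each siCTRL library and 1, 4 and 3 counts in siRNA-1 libraries, too few to test.

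The receptor and its kinases barely differed between the groups. IFNAR1, the chain that recruits TYK2, stood at 103, 109 and 102 CPM in siCTRL and 91.7, 95.4 and 97.0 CPM in siRNA-1 libraries. These values did not overlap, and the fall of 1.11-fold passed the test narrowly (log2 fold change -0.15 with SE 0.056, edgeR adjusted p = 0.0395). It did not pass in 8 of 14 alternative analyses. IFNAR2, the chain that recruits JAK1, gave 16.4, 13.2 and 15.2 against 14.3, 14.6 and 16.2 CPM. These values overlapped, and the 95% interval of its log2 fold change ran from -0.23 to 0.25. Without siCTRL 2, the lowest control, its log2 fold change of 0.01 became -0.087. IFNAR2 shares 44.2% of its annotated exonic bases with a read-through gene that had 0 counts and 39.1% with an opposite-strand transcript, so its reads are assigned with some uncertainty. JAK1 gave 199, 218 and 211 against 213, 233 and 215 CPM (interval -0.05 to 0.20). TYK2 gave 109, 110 and 94.7 against 111, 108 and 110 CPM (interval -0.08 to 0.21). For both kinases the groups overlapped.

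Both well-expressed transcription factors of the pathway fell. STAT2, the STAT protein particular to type I and III interferon signalling, stood at 95.7, 92.2 and 86.3 CPM in siCTRL and at 51.8, 49.7 and 53.4 CPM in siRNA-1 libraries. All control values lay above all siRNA-1 values, a 1.77-fold fall (log2 fold change -0.82 with SE 0.063, edgeR adjusted p = 4.91e-07). IRF1, which activates interferon and antiviral genes, gave 74.5, 82.8 and 71.2 CPM in siCTRL and 40.7, 45.5 and 41.2 CPM in siRNA-1 libraries. It fell 1.79-fold without overlap (log2 fold change -0.84 with SE 0.075, edgeR adjusted p = 1.75e-06). Genes on the opposite strand overlap 22.0% and 6.01% of the exonic bases of IRF1, and no source used here says whether the counting used strand.

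IRF7, the amplifier of type I interferon transcription, did not pass: 6.16, 7.53 and 5.65 CPM in siCTRL and 6.29, 8.01 and 9.20 CPM in siRNA-1 libraries, with overlap (adjusted p = 0.168, edgeR). Without siCTRL 2, the highest control, IRF7 was called higher (log2 fold change 0.39, adjusted p = 0.0289, edgeR). Over the alternatives run its adjusted p ranged from 0.0289 to 0.497. IRF9, the DNA-binding partner of STAT2, had only 9, 12 and 8 counts in siCTRL and 12, 9 and 10 in siRNA-1 libraries. Another protein-coding gene on the same strand covers 48.4% of its exonic bases and was itself low in the table. Reads from shared bases cannot be assigned with certainty, so this count may not stand for its level.

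The calls of the cytoplasmic RNA sensors were not alike, but differences between the sensors were not tested. IFIH1, which encodes the long double-stranded RNA sensor MDA5, rose from 22.5, 30.4 and 26.8 CPM to 39.7, 42.5 and 46.6 CPM. The ranges did not meet, and the rise was 1.62-fold (log2 fold change 0.70 with SE 0.11, edgeR adjusted p = 0.000125). DHX58, which encodes the regulatory helicase LGP2, gave 8.42, 8.85 and 8.33 CPM against 10.8, 9.60 and 10.6 CPM. Its groups did not overlap, but it did not pass the test (log2 fold change 0.28, adjusted p = 0.0543, edgeR). That p ranged from 0.0352, with no scaling beyond library size, to 0.164 over the alternatives. DDX60, a helicase linked to RNA sensing, overlapped between groups (27.2 to 44.3 against 30.0 to 37.2 CPM, adjusted p = 0.569, edgeR). Its log2 fold change was -0.10, and 0.076 without siCTRL 2, the highest control. RIGI, the sensor of RNA with a free triphosphate end, had 3, 5 and 0 counts in siCTRL and 7, 5 and 8 counts in siRNA-1 libraries, too few to test. The annotation behind the counting is not known, so these counts may not stand for its level.

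Among effectors, the largest rise was that of RSAD2 (chr2:6865806-6898239, plus strand, GRCh38). It encodes viperin, a radical SAM enzyme that makes a chain-terminating nucleotide. The libraries held 2.67, 2.64 and 3.12 CPM in siCTRL and 16.6, 17.6 and 20.7 CPM in siRNA-1 cells. Even the lowest siRNA-1 library was far above the highest control, and the rise was 6.50-fold (log2 fold change 2.70, SE 0.15, edgeR adjusted p = 3.07e-08). CMPK2, the kinase gene next to it that supplies the substrate of viperin, had 6, 10 and 4 counts in siCTRL and 9, 10 and 13 counts in siRNA-1 libraries. The annotated gene bodies overlap at their starts on opposite strands, across 0.290% of the exonic bases of RSAD2. CMPK2 could not be tested, so a difference in response between these neighbours was not tested either.

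All 4 members grouped here as the ISG15 system were higher. UBA7 and UBE2L6, further genes of ISG15 conjugation outside the set, did not pass the test (log2 fold changes -0.05 and -0.11). ISG15 encodes a ubiquitin-like protein that is conjugated to other proteins and also secreted. It rose from 54.3, 40.5 and 55.0 CPM to 123, 115 and 123 CPM, 2.41-fold and without overlap (log2 fold change 1.27 with SE 0.098, edgeR adjusted p = 5.26e-07). The lowest control was siCTRL 2, and without it the log2 fold change was 1.12. HERC5, the main ligase that attaches ISG15, rose 2.09-fold, from 60.8, 66.5 and 54.9 CPM to 124, 125 and 133 CPM (adjusted p = 1.82e-07, edgeR). Its siRNA-1 values formed a tight group well above all controls. HERC6, the neighbouring relative of HERC5, rose 1.45-fold from 14.9 ± 0.845 to 21.6 ± 0.356 CPM (SD, n = 3 per group). USP18, the protease that removes ISG15 and also restrains the receptor, was low, with 16, 10 and 22 counts in siCTRL and 31, 49 and 48 counts in siRNA-1 libraries. In CPM it gave 1.09, 0.777 and 1.64 against 2.17, 3.25 and 3.27. The groups stayed apart, and the rise was 2.46-fold with a wide error (log2 fold change 1.30 with SE 0.30, edgeR adjusted p = 0.00248).

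OASL and ISG20 completed the rises of at least 2-fold. OASL, an OAS relative that lacks synthetase activity and carries ubiquitin-like domains, rose 3.38-fold from 21.1, 22.5 and 22.0 CPM to 72.5, 77.1 and 72.3 CPM. Replicates lay close together in both groups (log2 fold change 1.76 with SE 0.068, edgeR adjusted p = 2.54e-09). ISG20, an RNA exonuclease gene, rose 2.03-fold from 5.75, 5.51 and 6.02 CPM to 11.2, 13.5 and 10.4 CPM, again without overlap (adjusted p = 5.0e-05, edgeR).

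Smaller rises were found in 3 families of membrane and RNA-binding effectors. IFIT1, which binds viral RNA lacking cap methylation, rose 1.89-fold from 53.0, 55.4 and 53.6 CPM to 101, 95.0 and 110 CPM. IFIT2 rose 1.54-fold from 135 ± 11.4 to 207 ± 15.6 CPM and IFIT3 rose 1.44-fold from 160 ± 7.96 to 229 ± 21.0 CPM. The fourth of these genes, IFIT5, did not pass (53.8 ± 2.64 against 50.6 ± 1.49 CPM, interval of the log2 fold change -0.23 to 0.05). The IFITM genes encode membrane proteins that hinder virus fusion, and all of them rose. IFITM1 rose 1.55-fold, IFITM2 rose 1.74-fold, and IFITM3 rose 1.80-fold from 231 ± 27.1 to 416 ± 22.0 CPM. Their sequences are alike, and 32.5% of the exonic bases of IFITM1 also belong to IFITM2, so the split of reads between them is uncertain. An opposite-strand transcript covers 21.3% of the exonic bases of IFITM3. IFI44 rose 1.83-fold and its neighbour IFI44L 1.96-fold, the latter from 29, 40 and 23 counts to 53, 68 and 74 counts. BST2, which encodes the virion tether tetherin, rose 1.37-fold from 216 ± 17.5 to 295 ± 10.9 CPM. The other 3 genes of the IFI group, IFI6, IFI27 and IFI35, overlapped between the groups and did not pass. Their log2 fold changes were 0.17, -0.08 and -0.11, and siCTRL 2 was the lowest control in each of the 3. Without it IFI6 was at -0.0012, and IFI27 (-0.19, adjusted p = 0.00469, edgeR) and IFI35 (-0.21, adjusted p = 0.0191, edgeR) were called lower. Over all alternatives their adjusted p ranged from 0.00469 to 0.902 and from 0.0191 to 0.868.

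**Figure D2:**
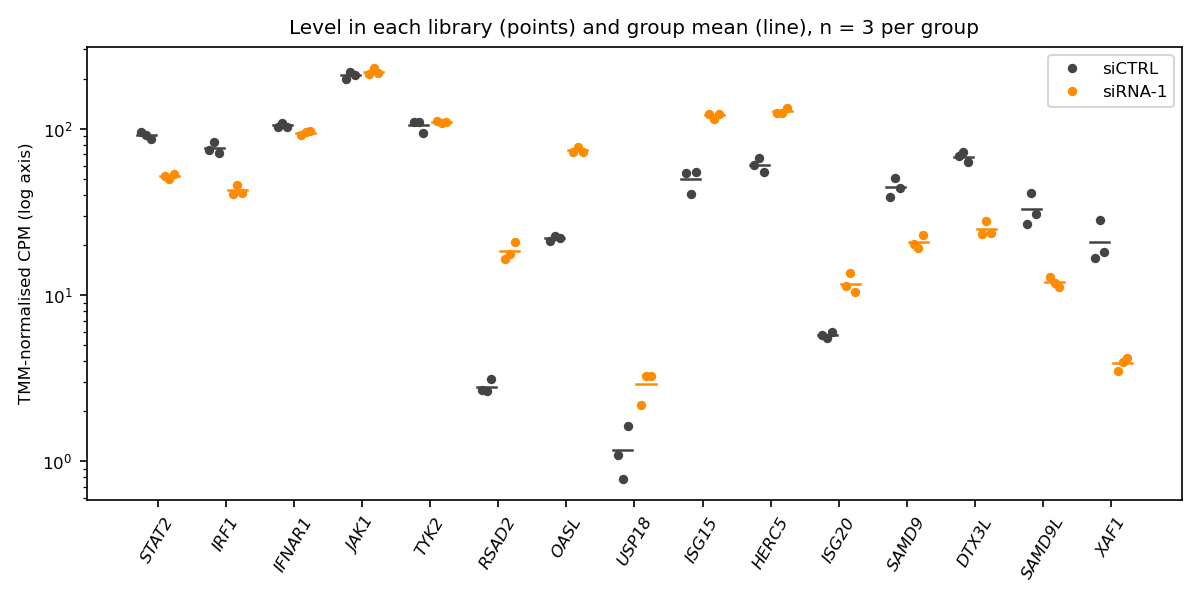
TMM-normalised CPM on a log axis for 15 members, with each library as a point and each group mean as a line (3 siCTRL and 3 siRNA-1 libraries). STAT2, IRF1 and the last 4 genes sit lower in siRNA-1 libraries, RSAD2 to ISG20 sit higher, and IFNAR1, JAK1 and TYK2 lie nearly level.

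The largest fall was that of XAF1 (chr17:6755447-6775647, plus strand), an interferon-induced gene whose product counteracts the apoptosis inhibitor XIAP. Its levels were 16.6, 28.2 and 18.0 CPM in siCTRL and 3.49, 3.97 and 4.16 CPM in siRNA-1 libraries. The control siCTRL 2 was the highest, yet every control lay above every siRNA-1 library. The fall was 5.36-fold (log2 fold change -2.42 with SE 0.21, edgeR adjusted p = 1.37e-06), and without siCTRL 2 the log2 fold change was -2.17. A transcript annotated on the opposite strand covers 38.3% of the exonic bases of XAF1, and without knowing the use of strand its reads cannot be told apart from those of XAF1.

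SAMD9 and SAMD9L, adjacent genes for antiviral factors that restrain translation and growth, fell together. SAMD9L fell 2.74-fold from 26.8, 40.8 and 30.7 CPM to 12.9, 11.8 and 11.1 CPM (adjusted p = 4.14e-06, edgeR). SAMD9 fell 2.14-fold from 38.6, 50.7 and 43.7 CPM to 20.1, 19.1 and 22.9 CPM (adjusted p = 3.96e-06, edgeR). In both genes the groups were well apart and siCTRL 2 was the highest library. Without it SAMD9L had a log2 fold change of -1.28.

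DTX3L, a ubiquitin ligase that works in a complex with PARP9, fell 2.72-fold from 68.6, 72.1 and 62.6 CPM to 23.3, 27.8 and 23.5 CPM (edgeR adjusted p = 7.12e-08, log2 fold change -1.45, SE 0.087). PARP9 gave 20.2, 19.6 and 18.1 CPM in siCTRL and 19.9, 18.3 and 19.5 CPM in siRNA-1 libraries. Those values overlapped, and the 95% interval of the log2 fold change was -0.20 to 0.19. The ratio of PARP9 to DTX3L was 0.272 to 0.294 in siCTRL libraries and 0.660 to 0.856 in siRNA-1 libraries, without overlap. PARP14, an ADP-ribosyltransferase gene nearby on chromosome 3, fell 1.59-fold from 87.6 ± 12.5 to 54.9 ± 2.63 CPM. The MX genes, which encode dynamin-like GTPases that trap viral components, both fell: MX1 1.36-fold from 28.7 ± 3.38 to 21.0 ± 1.71 CPM, and MX2 1.66-fold from 6.28 ± 0.694 to 3.78 ± 0.312 CPM.

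The OAS family went in both directions. OAS proteins make oligoadenylates when they bind double-stranded RNA. OAS3 fell 1.74-fold from 35.6, 43.3 and 35.8 CPM to 21.1, 23.2 and 21.4 CPM (adjusted p = 1.56e-05, edgeR). OAS2 rose 1.19-fold from 37.0, 37.1 and 36.4 CPM to 44.4, 43.8 and 43.2 CPM (adjusted p = 0.00494, edgeR). OAS1 was lower in every siRNA-1 library (3.54 to 3.91 CPM) than in any control (4.38 to 5.28 CPM) but did not pass (adjusted p = 0.0671, edgeR, 0.0585 to 0.170 over the alternatives). The ratio of OASL to OAS3 was 0.521 to 0.614 in siCTRL and 3.33 to 3.44 in siRNA-1 libraries, a shift visible in each library.

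Such ratios within a library do not depend on the scaling between libraries. Of 10 pairs of related or adjacent members, 7 had ratios that did not overlap between the groups, with an exact two-sided permutation p of 0.1, the smallest that 3 against 3 libraries can give. The test therefore cannot pass 0.05 here. The pairs were chosen with earlier results known, ratios of other gene pairs were not computed, and 67.6% of single genes did not overlap either, so nothing is read from the count of 7. The ratio of HERC5 to HERC6 was 3.84 to 4.48 in siCTRL and 5.70 to 6.10 in siRNA-1 libraries. The ratios of IFIT2 to IFIT3, IFI44 to IFI44L and IFNAR1 to IFNAR2 overlapped.

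**Figure D3:**
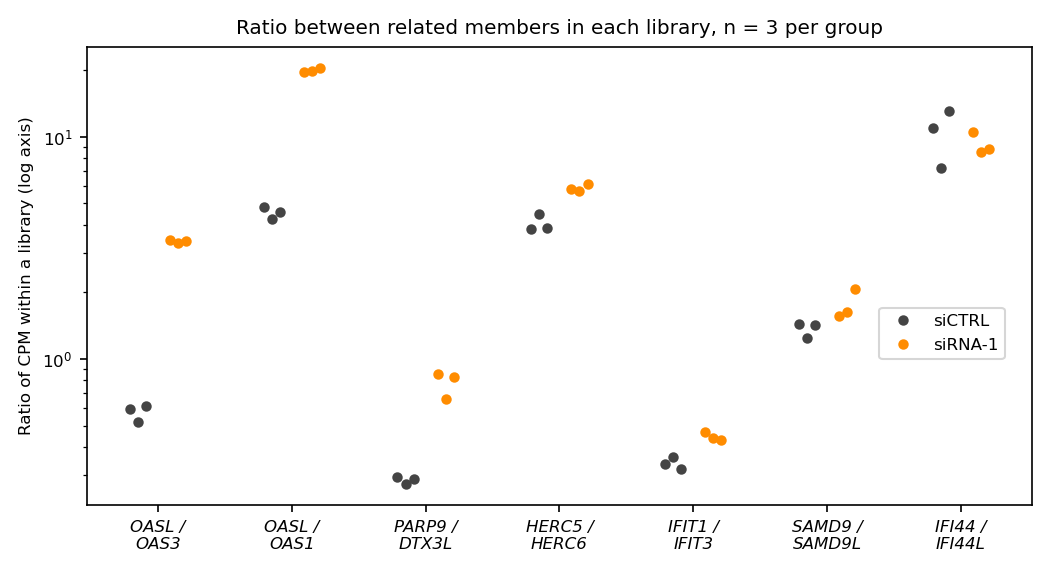
Ratio of the CPM of related members within each library, on a log axis, for 7 of the 10 pairs, with 3 points for each group. OASL against OAS3 or OAS1 and PARP9 against DTX3L separate widely, whereas IFI44 against IFI44L overlaps.

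Many of these genes lie in clusters of related copies, and their calls are listed here by position. In the GENCODE 29 annotation, 25 members had another member within 200 kb, in 10 clusters. In 5 clusters every member was called in 1 direction: IFI44L with IFI44, the IFITM genes and HERC6 with HERC5 upwards, and MX2 with MX1 and SAMD9 with SAMD9L downwards. The cluster on chromosome 12 was the 1 that held calls in both directions, with OAS3 (chr12:112938352-112973249, lower) lying between OAS1 and OAS2 (chr12:112978395-113011723, higher). The other 4 clusters mixed called members with ones that did not pass or were not tested. Over all genes tested 31.5% were called higher and 31.0% lower, and neighbouring genes outside the set were not examined. Nothing is therefore read from these counts of clusters. IFITM1 and IFITM2 also share exonic bases, so their calls are not separate.

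**Figure D4:**
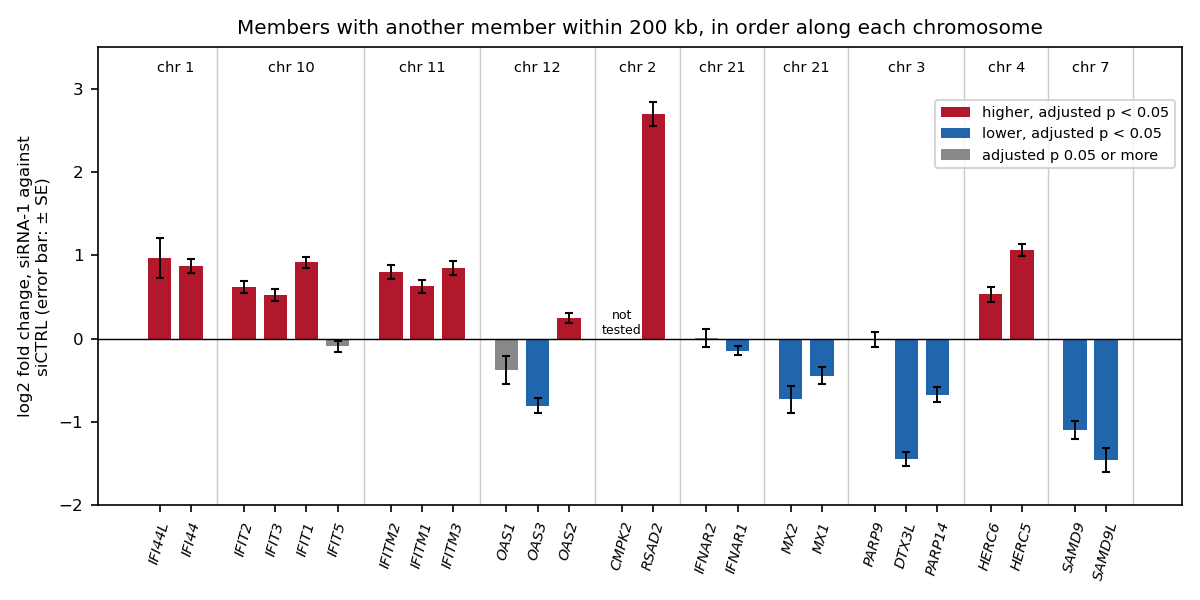
Log2 fold change (bars, ± SE) of the members with a further member within 200 kb, grouped by cluster and in order along each chromosome. The 3 clusters of chromosomes 1, 11 and 4 rise throughout, those of MX2 with MX1 and of SAMD9 with SAMD9L fall throughout, and OAS3 and OAS2 point in opposite directions.

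The promoters were searched for the letters through which interferon acts. RefSeq promoter windows of GRCh38.p14, 250 bases before to 50 after a start, were found for 36 of the 45 members, in 49 windows. The ISRE core was searched as GAAANNGAAA on both strands. It was present in 22 of the 36 members (61.1%), against 4.38% of all 27305 genes with a window and 3.82% of the tested genes outside the set. These genes are known as interferon targets, so a high share is part of what they are. Among members with a window, 12 of the 13 that rose held it. So did 5 of the 10 that fell and 5 of the 9 that did not pass. OASL, USP18, IFIT2, IFITM2 and OAS2 also rose but had no window. The 22 had a median log2 fold change of 0.49 (from -1.45 to 2.70). The 10 tested members with no match had one of -0.26 (from -2.42 to 0.53). These 10 included the signalling genes IFNAR1, JAK1, TYK2, STAT2 and IRF1. The 22 included no receptor, kinase or transcription factor gene, so the groups differ in role as well as in letters. This is a description of members chosen by name, with earlier results known. Among tested genes outside the set the letters were in 3.49% of those that rose and 4.20% of those that fell. The following windows show the core, in capitals with 15 bases on each side along the strand of the gene, in 6 members that rose.
RSAD2, chr2:6877617-6877656, plus strand: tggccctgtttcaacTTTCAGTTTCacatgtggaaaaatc
ISG15, chr1:1013369-1013408, plus strand: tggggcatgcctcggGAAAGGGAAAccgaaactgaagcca
IFIT1, chr10:89392492-89392531, plus strand: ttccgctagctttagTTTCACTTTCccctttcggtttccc
IFI44, chr1:78649756-78649795, plus strand: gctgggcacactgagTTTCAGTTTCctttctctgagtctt
IFITM3, chr11:320871-320910, minus strand: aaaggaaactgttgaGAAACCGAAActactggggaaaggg
ISG20, chr15:88638932-88638971, plus strand: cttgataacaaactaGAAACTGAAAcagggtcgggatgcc

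The same core stood in MX1 and in the following 3 members that fell. A capital run that begins with TTTC is the core read on the opposite strand.
SAMD9, chr7:93118091-93118130, minus strand: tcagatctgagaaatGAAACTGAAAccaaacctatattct
OAS3, chr12:112938316-112938355, plus strand: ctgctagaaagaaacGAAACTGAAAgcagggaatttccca
PARP14, chr3:122680795-122680834, plus strand: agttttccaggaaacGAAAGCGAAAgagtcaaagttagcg

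DTX3L and PARP9 share a single core, which spans the DTX3L start and lies before the start of 1 of 2 PARP9 windows. The other PARP9 window held 0 matches. The core is shown here from both genes because one fell 2.72-fold and the other did not pass. Both lines are the same bases of chromosome 3, each along its own gene.
DTX3L, chr3:122564317-122564356, plus strand: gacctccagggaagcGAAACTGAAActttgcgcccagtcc
PARP9, chr3:122564317-122564356, minus strand: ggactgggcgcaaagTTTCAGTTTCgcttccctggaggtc
The promoter of DTX3L is given in full, with the core in capitals, since it also covers that PARP9 start (chr3:122564088-122564387, plus strand).
DTX3L promoter: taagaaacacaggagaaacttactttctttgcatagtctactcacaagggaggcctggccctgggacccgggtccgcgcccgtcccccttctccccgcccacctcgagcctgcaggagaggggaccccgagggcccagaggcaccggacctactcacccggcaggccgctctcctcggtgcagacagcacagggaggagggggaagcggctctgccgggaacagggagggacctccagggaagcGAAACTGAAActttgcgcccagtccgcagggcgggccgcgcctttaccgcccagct

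XAF1, the largest fall, held no GAAANNGAAA in either of its windows but held the related letters GAAANGAAA, with 1 base less between the repeats, as did OAS1. Those letters were in 13 of the 36 members (36.1%) and in 3.87% of all genes with a window. Of the members that rose 3 of 13 held them, of those that fell 5 of 10, and of those that did not pass 3 of 9. The gamma-activated site, searched as TTCNNNGAA, which reads the same on both strands, was in 11 of the 36 (30.6%) against 9.38% of all genes. It was in 2 of the 13 that rose, in 3 of the 10 that fell (IRF1 among them) and in 4 of the 9 that did not pass. The matches of XAF1, OAS1 and IRF1 are shown because these genes lacked the ISRE core in their windows.
XAF1, chr17:6756026-6756064, plus strand: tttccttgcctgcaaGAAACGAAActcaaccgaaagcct
OAS1, chr12:112906930-112906968, plus strand: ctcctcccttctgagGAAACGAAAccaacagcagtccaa
IRF1, chr5:132490874-132490912, minus strand: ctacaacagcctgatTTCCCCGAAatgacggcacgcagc

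**Figure D5:**
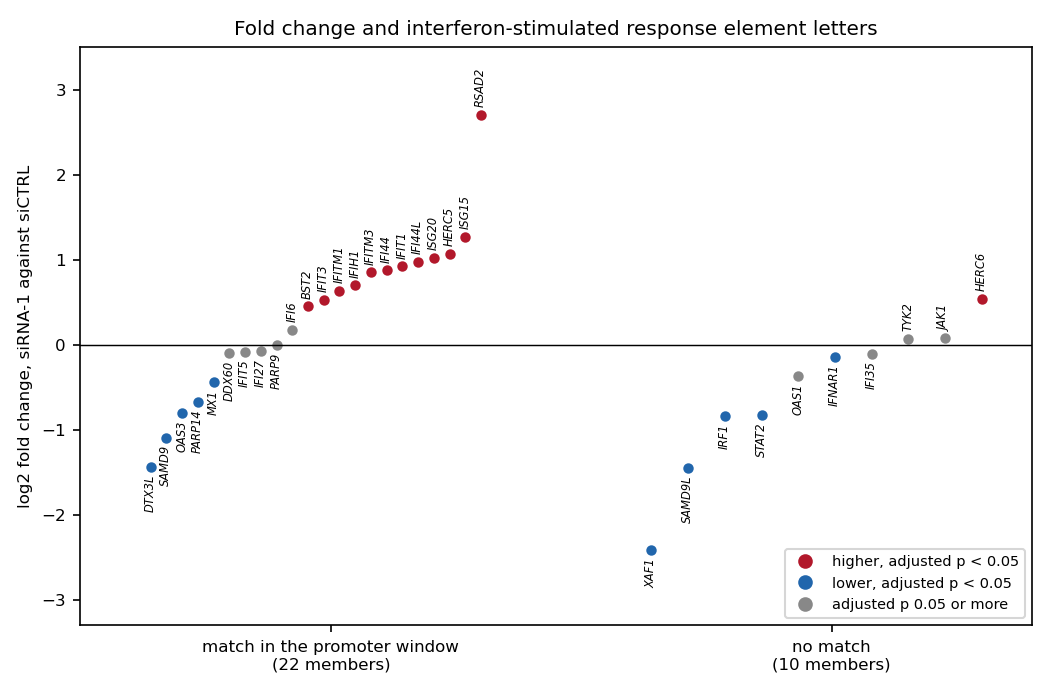
Log2 fold change of the 32 tested members with a promoter window, ordered within 2 groups: those with GAAANNGAAA on either strand (22) and those without (10). Points are coloured by call, and members with a match run from DTX3L at -1.45 to RSAD2 at 2.70.

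Levels were compared between genes only per kilobase of annotated exon. In siCTRL cells the most abundant members were BST2 (193 ± 15.6 CPM per kb) and IFITM3 (171 ± 20.1), which did not differ beyond their spread. IFIT3 (60.5 ± 3.02) and ISG15 (53.1 ± 8.73) came next and overlapped likewise. In siRNA-1 cells the order was IFITM3 (309 ± 16.3 CPM per kb), BST2 (264 ± 9.75), ISG15 (128 ± 5.09) and IFIT3 (86.9 ± 7.97). ISG15 then lay above IFIT3 by more than the spread of either. OASL rose from a place beside OAS2 (6.22 ± 0.198 against 5.88 ± 0.0598 CPM per kb) to 21.0 ± 0.771, above OAS2 at 6.99 ± 0.0923. RSAD2, despite its fold change, remained low per length, at 0.581 ± 0.0559 in siCTRL and 3.78 ± 0.447 CPM per kb in siRNA-1 cells. The summed CPM of the 32 effectors was 1555, 1566 and 1609 in siCTRL and 2142, 2118 and 2163 in siRNA-1 libraries. IFITM3 and BST2 were the largest parts of that sum.

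Other genes of the pathway, on lists of 110 genes taken for their roles with earlier results known, also split. Of 86 tested, 31 were higher and 30 lower (70.9% called, against 62.5% of all genes), with a median log2 fold change of -0.06. Receptors and signalling genes of type II and III interferons gave 5 higher and 3 lower of 9. IFNLR1, the interferon lambda receptor, fell 2.34-fold from 7.33 ± 0.767 to 3.14 ± 0.377 CPM. CIITA, the activator of class II antigen presentation genes, fell 2.02-fold.

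Adaptors and kinases that connect RNA sensing to interferon genes gave 7 higher and 2 lower of 12. TRAF3, a signalling scaffold, rose 1.91-fold from 60.7 ± 3.09 to 116 ± 4.29 CPM. TBK1, the kinase that activates IRF3, rose 1.92-fold from 41.1 ± 2.77 to 79.0 ± 1.95 CPM, while TLR3, the endosomal receptor for double-stranded RNA, fell 2.73-fold from 14.4 ± 1.86 to 5.27 ± 0.995 CPM. The list of negative regulators, on which UBA7 was also placed, gave 3 higher and 4 lower of 11. Among them TRAFD1 rose 2.02-fold, SOCS3, an inhibitor of JAK signalling, rose 1.42-fold and the phosphatase gene PTPN11 fell 1.32-fold. SOCS1, a related inhibitor of JAK signalling, fell 2.13-fold from 5.01 ± 1.38 to 2.33 ± 0.221 CPM and is named after its values were seen.

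Enzymes that bind or process double-stranded RNA gave 6 higher and 1 lower of 8, all by small amounts. TARBP2, a partner of DICER1, rose 1.39-fold, SUPV3L1, a mitochondrial RNA helicase gene, rose 1.19-fold and DICER1 fell 1.21-fold. Further interferon-stimulated genes gave 13 higher and 20 lower of 49. The 3 with the smallest p all fell: GBP2 2.94-fold from 126 ± 4.63 to 42.9 ± 1.53 CPM, GBP1 3.15-fold from 76.8 ± 3.69 to 24.4 ± 1.59 CPM, and APOL6 3.53-fold from 109 ± 16.8 to 30.8 ± 1.02 CPM. GBP1 and GBP2 encode guanylate-binding proteins, which respond mainly to interferon gamma, and APOL6 encodes an apolipoprotein L.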

How the data were processed

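RNA sequencing was analysed for 3 siCTRL and 3 siRNA-1 libraries of MDA-MB-231 cells, grouped by their titles. The authors deposited raw counts per Ensembl gene, made with HTSeq and named so per the labels. The submitters' processing notes also name Trimmomatic, STAR, kallisto and the build hg38. No source used here gives versions, annotation release, strand setting or filters. All 20042 genes were matched to a symbol. Positions, exonic lengths and overlaps came from GENCODE 29 (GRCh38). That release listed 19847 of the genes, so overlaps with the others were not examined.

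Counts were tested in R 4.3.3 with edgeR 4.0.16: filterByExpr (minimum count 10, minimum total 15, leaving 12440 genes), TMM scaling and the quasi-likelihood F test, two-sided, with group as the only term. Adjusted p-values are Benjamini-Hochberg over all genes tested, with a threshold of 0.05, and the SE was derived from the F statistic. Alternatives used DESeq2 1.42.0, limma 3.58.1 (voom), other scalings and filters, a replicate block, a threshold of 0.01 and leaving out each library. The steps were tested on simulated counts.

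The members, lists and pairs were chosen with earlier results of these data known. Values per library were given for members with at least 2-fold called changes and for signalling genes, and the 3 smallest p named genes of other lists, of which 1 is not reported here. Further members were given library by library after their values were seen. Letters in promoters were searched by exact match in RefSeq windows.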

Additional observations from a re-analysis of the deposited data

How the results depend on the processing

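Of the 41 tested members, 31 kept their direction and their side of the threshold in every alternative that could be computed, up to 14 each: 18 higher, 10 lower and 3 that did not pass. The other 10 were IFNAR1, IFNAR2, TYK2, IRF7, DHX58, DDX60, IFI6, IFI27, IFI35 and PARP9. Direction turned only in members that did not pass. IFNAR2 turned at a mean of at least 100 counts (-0.029), and PARP9 turned with no scaling beyond library size (0.032) and with no filter on low counts (0.0064). Leaving out single libraries gave ranges across 0 for IFNAR2 (-0.087 to 0.071), PARP9 (-0.053 to 0.033), DDX60 (-0.27 to 0.076), TYK2 (-0.0012 to 0.090) and IFI6 (-0.0012 to 0.28), all log2 fold changes. Leaving out siCTRL 2 turned IFNAR2 (-0.087), DDX60 (0.076) and IFI6, and leaving out siCTRL 3 turned TYK2. PARP9 turned without siCTRL 1 (0.019) and without siRNA-1 replicate 2 (0.033). IFNAR2 also turned without siRNA-1 replicate 3 (-0.043). At a threshold of 0.01, 20 of the 86 other pathway genes tested were higher and 24 lower, against 31 and 30 at 0.05. Over all 12440 genes tested the threshold of 0.01 called 6206, with 3096 higher and 3110 lower. Replicate numbers were not used to pair the samples in the main test. Deviations of same-numbered libraries correlated at 0.0669, -0.0782 and -0.0571, so no strong shared deviation was seen. This does not settle whether same-numbered cultures were handled together, which the labels do not say. With the replicate block 28 members were called, 18 higher and 10 lower, IFNAR1 being lost (adjusted p = 0.0645, edgeR, within 0.0128 to 0.164 over all alternatives). Over all 12440 genes tested the block called 7535, with 3804 higher and 3731 lower. IRF9, RIGI, CMPK2 and IFNL1 had at most 13 counts in a library and could not be tested.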

Other observations

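The 7 letters GCTCACT, chosen earlier in these data for being common in the 3' untranslated regions of genes that fell, were counted in the members with GENCODE 29 transcripts. They were in 4 of the 11 members that fell (IFNAR1, PARP14, DTX3L and SAMD9), in 1 of the 18 that rose (IFIT1) and in 2 of the 12 that did not pass (IFNAR2 and PARP9). The share was 20.5% of all tested genes with such a region of at least 50 bases, and 38.0% of the genes that fell at least 2-fold. XAF1, SAMD9L, STAT2 and IRF1, which fell, did not hold these letters. Because the letters were chosen for being common in genes that fell, nothing is read from their split among members. Of the 4 members that fell and held them, only DTX3L and SAMD9 fell at least 2-fold. The share over all genes that fell by any amount was not computed. This is a description, and no test was made of it.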
